A study of Sus scrofa with 2 samples.

Results

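The genes described here make and break down heme, move it between compartments, or build iron-sulfur clusters. Members were chosen by name: of 37 gene symbols, with older symbols accepted for CIAO3, CIAO2B and FDX2, 26 matched an Ensembl pig gene ID in the deposited table of 25322 IDs. ALAS2, the erythroid form of the first heme enzyme, was not a member. The erythroid, microglial and other marker genes given for comparison were not members either.

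RNA of the hippocampus, the forebrain region that memory formation relies on, was sequenced from piglets of the Rongchang breed, which the labels give as wild type. The iron dextran group was given iron dextran, an injectable iron and polysaccharide complex used to prevent anaemia in young pigs, and the control group is labelled only as control. Each group was 1 sample with 1 value per gene. The label of each sample carries 2 names, and whether these were animals, libraries or runs is not given in the sources used here, nor are dose, exact age, sex and number of animals. The comparison asks how the hippocampal transcriptome of piglets given iron dextran differed from that of control piglets. With 1 sample per group there was no spread between replicates, so the differences below are described without a test and have no replicate check.

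Heme is an iron atom held in a porphyrin ring. Its synthesis starts and ends in the mitochondrion, with the middle steps in the cytosol, and in the brain it serves cytochromes, nitric oxide synthases and neuroglobin. Iron-sulfur clusters are built on a scaffold protein in the mitochondrion and inserted into enzymes such as aconitase and respiratory complexes I to III, and a separate set of cytosolic proteins supplies enzymes of DNA and RNA metabolism. Both pathways draw on the iron that enters the mitochondrion.

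Transcripts of both pathways differed little between the samples. Of the 26 matched members, 25 had a mean of at least 1 FPKM (fragments counted per kilobase of transcript, relative to the fragments mapped in the library), and HPX fell below that limit. Of these 25, 0 were higher in iron dextran by 1.5-fold or more and 0 were lower by as much. Folds were counted on the log2(FPKM + 1) scale, where changes of weakly expressed genes appear smaller than they are. Among all 12557 genes that reached a mean of 1 FPKM, 2.47% were higher by that rule, 1.47% were lower, and 3.94% passed in either direction. These were 310 genes higher and 185 lower, a split that became 454 and 132 when the iron dextran column was scaled to the control total. At the level where most of these genes lie, a mean FPKM from 10 to 200, 1.70% of 5714 genes passed it in either direction. A count of 0 among 25 is therefore close to that of genes in general. The ratio of iron dextran to control ran from 0.727 (FLVCR2) to 1.26 (FLVCR1), and 14 of the 25 ratios lay within 1.1-fold.

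**Figure D1:**
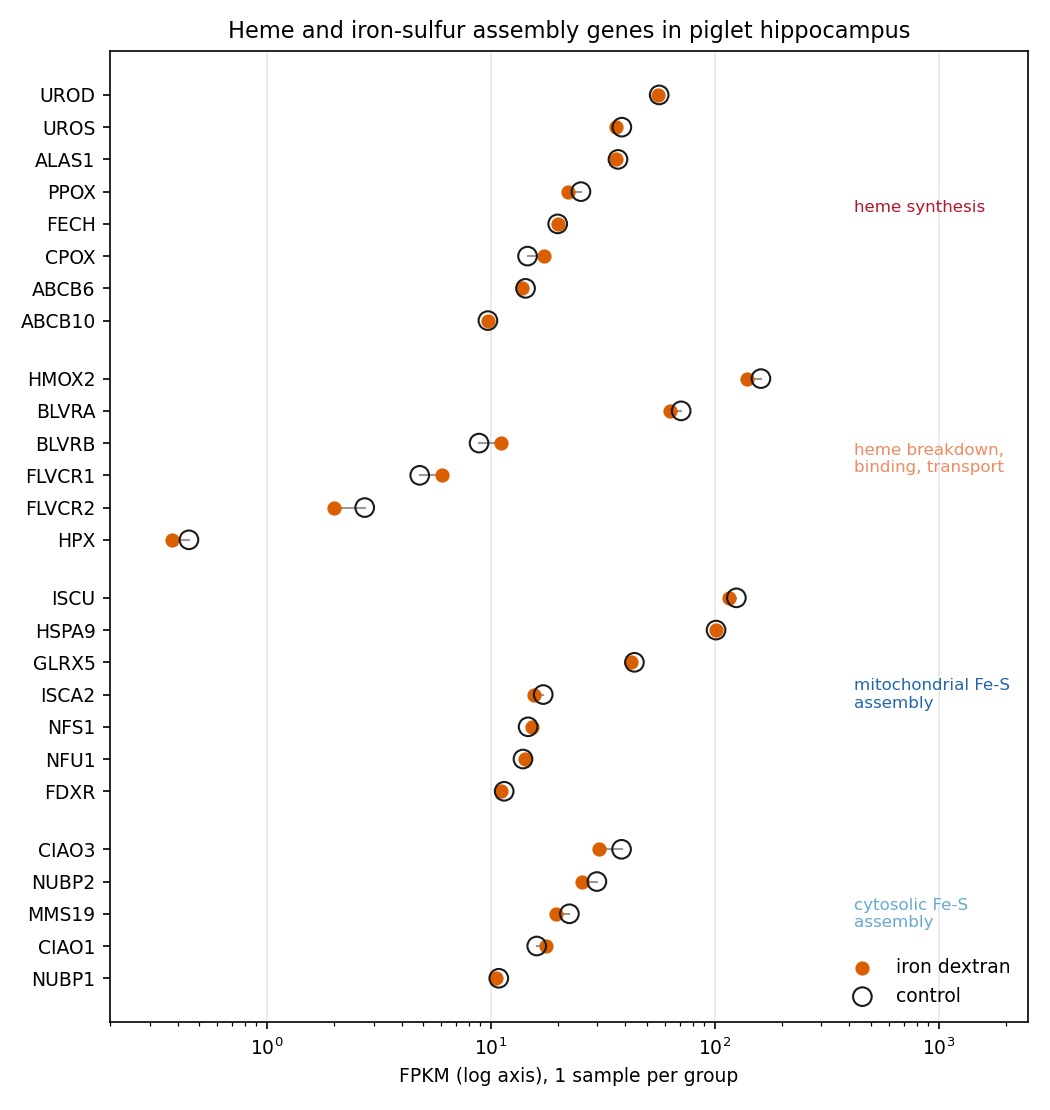
FPKM of the 26 matched genes on a log axis, with filled orange points for the iron dextran sample and open rings for the control sample, ordered by control level within 4 roles. The pairs nearly coincide for FECH, ABCB10 and HSPA9, and the widest gap on this axis is that of FLVCR2, at 1.99 FPKM in iron dextran and 2.74 in control.

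A lower limit of 1.2-fold, added after the differences had been seen, was passed by 4 of the 25 members (16.0%), against 21.5% of all genes tested. Those 4 were BLVRB and FLVCR1, which were higher in iron dextran, and FLVCR2 and CIAO3, which were lower. Within the band from 10 to 200 FPKM the count was 2 of 22 members (9.09%), against 12.9% of all genes there. Differences below 0 were found for 18 of the 25 members (72.0%), against 51.0% of all genes tested. In the same band of levels, 16 of 22 members (72.7%) and 59.6% of all genes lay below 0. The direction depended on scaling: when the iron dextran column was scaled to the control total, 17 of the 25 lay above 0, and the median of all genes tested shifted to 0.10. Against the median of all genes tested, 16 members were lower and 9 higher, a count that scaling a column can hardly change. It was 13 and 11 from a mean of 5 FPKM, and 19 and 7 without a filter.

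**Figure D2:**
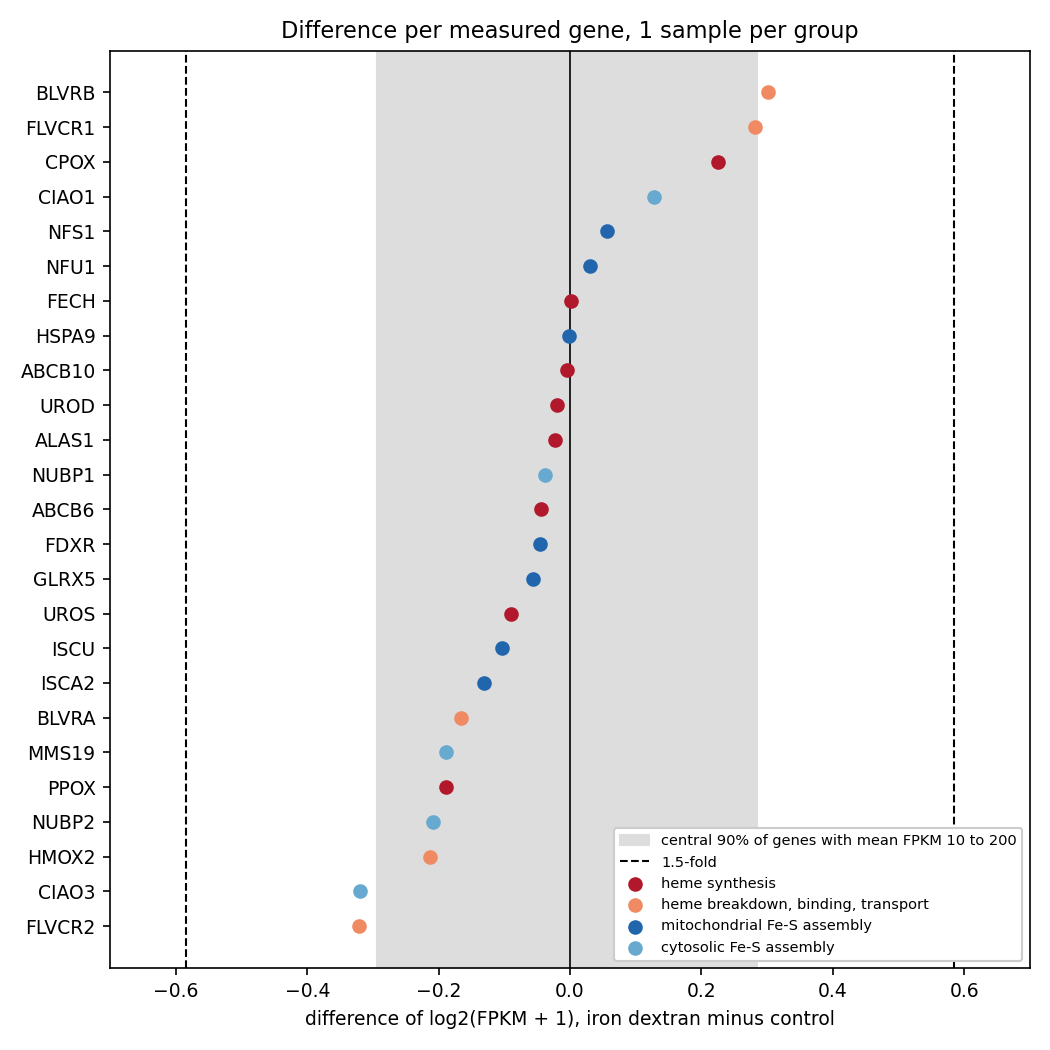
Iron dextran minus control on the log2(FPKM + 1) scale for the 25 measured genes, coloured by role. The grey band spans the central 90% of genes with a mean FPKM of 10 to 200, from −0.29 to 0.29, and the dashed lines mark 1.5-fold. No point reaches a dashed line, and FLVCR2, CIAO3 and BLVRB lie just outside the band. FLVCR2, at a mean of 2.37 FPKM, is below the levels that the band describes. The central 90% of all genes tested, from −0.35 to 0.42, holds FLVCR2.

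The enzymes of heme synthesis were nearly level. Of 9 listed genes 8 were measured, and the ratio of iron dextran to control was within 1.1-fold for 6 of them. The median log2 difference was −0.02 and turned to 0.10 when the columns had the same total. Summed over the 8 genes, expression was 211 FPKM in iron dextran and 216 FPKM in control. ALAS1 (ENSSSCG00000011437), the housekeeping form of the rate-limiting first enzyme, whose transcript is repressed by heme in liver, had 36.4 FPKM in iron dextran and 37.0 FPKM in control. ALAD, the second enzyme, was not matched to an ID by its symbol, and may be present under an ID without a symbol.

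The cytosolic enzymes that shape the ring followed. UROS, which closes the ring, had 36.2 FPKM in iron dextran and 38.5 FPKM in control. UROD, which removes carboxyl groups from its side chains, had 55.8 FPKM in iron dextran and 56.6 FPKM in control, the highest level of this group in both samples. UROD and UROS thus kept nearly the same proportion, with 1.54 times as much UROD as UROS within iron dextran and 1.47 times within control.

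The last enzymes act at the mitochondrion, and there the largest differences of the synthesis group were found, in opposite directions. CPOX (ENSSSCG00000011978), which oxidises coproporphyrinogen, had 17.3 FPKM in iron dextran and 14.6 FPKM in control, a ratio of 1.18. PPOX (ENSSSCG00000006361), the next enzyme, had 22.1 FPKM in iron dextran and 25.3 FPKM in control, a ratio of 0.873. The ratio of CPOX to PPOX, which no scaling of columns can change, was 0.782 within iron dextran and 0.578 within control. Neither gene was past 1.2-fold by itself, and 26.9% of all genes tested had a larger absolute difference than CPOX. FECH (ENSSSCG00000004541), which inserts iron into the ring and itself carries an iron-sulfur cluster, had 19.94 FPKM in iron dextran and 19.93 FPKM in control.

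Both transporters of this group differed little. ABCB6, which moves porphyrins across membranes, had 13.9 FPKM in iron dextran and 14.3 FPKM in control. ABCB10, a transporter of the inner mitochondrial membrane that red cell precursors of the mouse need to make heme, had 9.69 FPKM in iron dextran and 9.72 FPKM in control.

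Genes of heme breakdown, binding and transport varied most among the 4 roles. Of 8 listed genes 6 were matched and 5 measured, and none of these 5 lay within 1.1-fold. Differences were above 0 for 2 and below 0 for 3, with a median of −0.17. That median turned to 0.06 at a mean FPKM of at least 5, where FLVCR2 is left out, and was −0.0468 with the same column total. HMOX2 (ENSSSCG00000007942), the constitutive heme oxygenase, which is abundant in brain and opens the heme ring to release iron, carbon monoxide and biliverdin, had 139 FPKM in iron dextran and 161 FPKM in control. It had the highest level of all members in both samples. Its log2 difference of −0.21 compares with a median of −0.0767 over the 1367 genes with a mean FPKM from 50 to 200. The central 90% of those genes ran from −0.28 to 0.16, a range that holds HMOX2. A larger absolute difference than that of HMOX2 was found for 29.3% of all genes tested. The inducible oxygenase HMOX1 was not matched to an ID.

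The biliverdin reductases, which turn biliverdin into bilirubin, differed in opposite directions. BLVRA (ENSSSCG00000016756), the main adult form, had 63.1 FPKM in iron dextran and 70.9 FPKM in control, a ratio of 0.890. BLVRB (ENSSSCG00000021067), which also reduces flavins and is abundant in red cells, had 11.2 FPKM in iron dextran and 8.88 FPKM in control, a ratio of 1.26. BLVRB had the highest log2 difference of the 25 members, 0.30, and 16.6% of all genes tested had a larger absolute difference. The central 90% of genes with a mean FPKM from 10 to 200 ran from −0.29 to 0.29, just short of BLVRB. Within iron dextran there was 5.65 times as much BLVRA as BLVRB, and within control 7.99 times. Globin transcripts were also higher in iron dextran: all 3 measured erythroid markers of 12 listed passed 1.5-fold, with HBB at 506 FPKM in iron dextran and 183 FPKM in control and HBM at 6.80 FPKM in iron dextran and 2.89 FPKM in control. The 3 summed to 519 FPKM in iron dextran and 189 FPKM in control. KLF1 was listed at 0 in iron dextran and SLC4A1 was listed at 0 in control. The part of blood in the difference of BLVRB was not tested. In bulk tissue, fewer cells of a type and less RNA per cell cannot be told apart.

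The related carriers FLVCR1 and FLVCR2 also went opposite ways. FLVCR1 (ENSSSCG00000015590), described as a heme exporter and a choline transporter, had 6.08 FPKM in iron dextran and 4.82 FPKM in control. FLVCR2 (ENSSSCG00000021606), its relative, which is found in brain endothelium of mice, had 1.99 FPKM in iron dextran and 2.74 FPKM in control. Both are low, with FLVCR2 the lowest of the 25 members. Within iron dextran there was 3.05 times as much FLVCR1 as FLVCR2, and within control 1.76 times, so the proportion differed by 1.73-fold between the samples. HPX, the plasma protein hemopexin that binds free heme, had 0.378 FPKM in iron dextran and 0.449 FPKM in control. SLC48A1, a heme importer of lysosomes, and HEBP1, a heme-binding protein, were not matched to an ID.

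Mitochondrial assembly of iron-sulfur clusters was the most even of the 4 roles. Of 14 listed genes 7 were measured, with ratios from 0.908 (ISCA2) to 1.04 (NFS1), and 6 of the 7, all but ISCA2, lay within 1.1-fold. The median log2 difference was −0.0458 and turned to 0.0649 when the columns had the same total. Together the 7 genes summed to 316 FPKM in iron dextran and 328 FPKM in control.

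The core that builds the cluster includes a sulfur donor and a scaffold. NFS1 (ENSSSCG00000007307), the cysteine desulfurase that supplies sulfur, had 15.3 FPKM in iron dextran and 14.7 FPKM in control. ISCU (ENSSSCG00000023380), the scaffold on which the cluster forms, had 116 FPKM in iron dextran and 125 FPKM in control, and it ranked behind HMOX2 alone in both samples. FDXR, the ferredoxin reductase that starts the flow of electrons to the cluster, had 11.1 FPKM in iron dextran and 11.5 FPKM in control. LYRM4, which stabilises NFS1, and the ferredoxins FDX1 and FDX2 were not matched to an ID.

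Chaperones and carriers then move the finished cluster. HSPA9 (ENSSSCG00000014338), the mitochondrial heat shock protein that helps release it from ISCU, had 101.4 FPKM in iron dextran and 101.5 FPKM in control. GLRX5, the glutaredoxin that receives it, had 42.1 FPKM in iron dextran and 43.9 FPKM in control. Downstream, ISCA2, of the machinery for larger clusters, had 15.6 FPKM in iron dextran and 17.2 FPKM in control. NFU1, which delivers clusters to enzymes including lipoic acid synthase, had 14.3 FPKM in iron dextran and 13.9 FPKM in control. ISCA1, HSCB, BOLA3 and IBA57 were not matched to an ID, so the late carriers were seen only in part.

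In cytosolic assembly, 4 of the 5 measured genes had differences below 0 (3 of 5 with the same column total), and none was past 1.5-fold. The median log2 difference was −0.19 and stayed below 0, at −0.0739, when the columns had the same total. Summed over the 5 genes, expression was 104 FPKM in iron dextran and 118 FPKM in control. CIAO3 (ENSSSCG00000008002), the bridge between the cytosolic scaffold and the targeting complex, had 30.6 FPKM in iron dextran and 38.4 FPKM in control. Its ratio of 0.796 was the lowest of the group, and 14.96% of all genes tested had a larger absolute difference. The log2 difference of CIAO3, −0.32, lay just below the central 90% of genes with a mean FPKM from 10 to 200. That range was −0.29 to 0.29.

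The scaffold is a pair of related ATPases. NUBP2 (ENSSSCG00000008014) had 25.7 FPKM in iron dextran and 29.8 FPKM in control, and NUBP1 (ENSSSCG00000024488) had 10.6 FPKM in iron dextran and 10.9 FPKM in control. NUBP2 exceeded NUBP1 2.43 times within iron dextran and 2.74 times within control. In the targeting complex, which hands clusters to polymerases and helicases, MMS19 (ENSSSCG00000010520) had 19.6 FPKM in iron dextran and 22.5 FPKM in control. CIAO1 (ENSSSCG00000008130), of the same complex, was the exception, with 17.6 FPKM in iron dextran and 16.1 FPKM in control. There was 1.73 times as much CIAO3 as CIAO1 within iron dextran and 2.39 times within control. CIAO2B, the remaining subunit, was not matched to an ID.

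**Figure D3:**
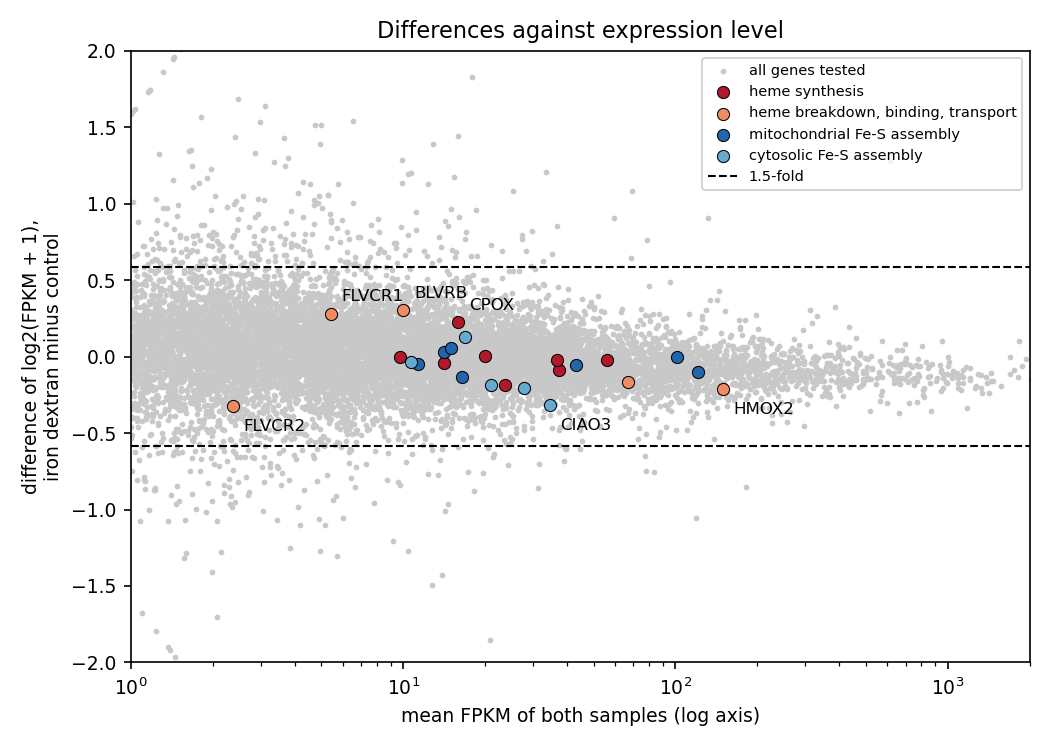
Iron dextran minus control on the log2(FPKM + 1) scale against mean FPKM on a log axis for all genes tested (grey) and the 25 measured members (coloured by role), with dashed lines at 1.5-fold. The members lie within the scatter of genes of similar level, and 83 genes beyond 2 on the difference axis or 2000 FPKM are not drawn.

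The order of levels was nearly the same in both samples. HMOX2, ISCU, HSPA9, BLVRA, UROD and GLRX5 held ranks 1 to 6 in each, and FLVCR1 and FLVCR2 held ranks 24 and 25. The largest move was that of BLVRB, at rank 20 in iron dextran and rank 23 in control. Whether neighbours in this order differ beyond the spread of samples cannot be said from 1 sample per group.

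Other genes of both pathways also stayed within 1.5-fold. Of 22 further heme pathway genes 13 were matched and 10 measured, 5 of them above 0 and 5 below (7 and 3 with the same column total), and 0 passed 1.5-fold in either direction. CLPX, a chaperone that activates the first heme enzyme in yeast, had 22.4 FPKM in iron dextran and 17.9 FPKM in control. PPARGC1A, a coactivator of mitochondrial genes that induces ALAS1 in mouse liver, had 1.68 FPKM in iron dextran and 1.19 FPKM in control. COX10, which modifies heme for cytochrome oxidase, was listed at 0 in both samples, which can be a failed estimate since every cell uses it.

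Of 18 further genes tied to iron-sulfur assembly, 12 were measured, with 1 above 0 and 11 below, which became 6 and 6 with the same column total. Without that scaling, 51.0% of all genes tested lay below 0, and 59.6% of those with a mean FPKM from 10 to 200. The median log2 difference of the 12 was −0.13, and 0 were past 1.5-fold on the log2(FPKM + 1) scale. NUBPL (ENSSSCG00000001968), which serves complex I, had 1.34 FPKM in iron dextran and 2.23 FPKM in control, a ratio of 0.602, and it passed 1.5-fold when the pseudocount was 0.1 or 0.01. LYRM2, a small mitochondrial protein of the LYR family, had 10.7 FPKM in iron dextran and 13.0 FPKM in control. CIAPIN1 (39.1 FPKM in iron dextran and 45.8 FPKM in control), which feeds electrons to cytosolic assembly, had a ratio of 0.853.

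Proteins that receive iron-sulfur clusters were also close to level. The list held 36 genes, and the 22 that could be measured split into 10 above 0 and 12 below, which became 17 and 5 with the same column total. The median log2 difference was −0.02 (0.0837 with that scaling), and 0 were past 1.5-fold. MOCS1, of molybdenum cofactor synthesis, had 5.13 FPKM in iron dextran and 6.46 FPKM in control. PPAT, the first enzyme of purine synthesis, had 2.87 FPKM in iron dextran and 2.20 FPKM in control. MUTYH, a DNA glycosylase, had 4.31 FPKM in iron dextran and 5.37 FPKM in control.

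**Figure D4:**
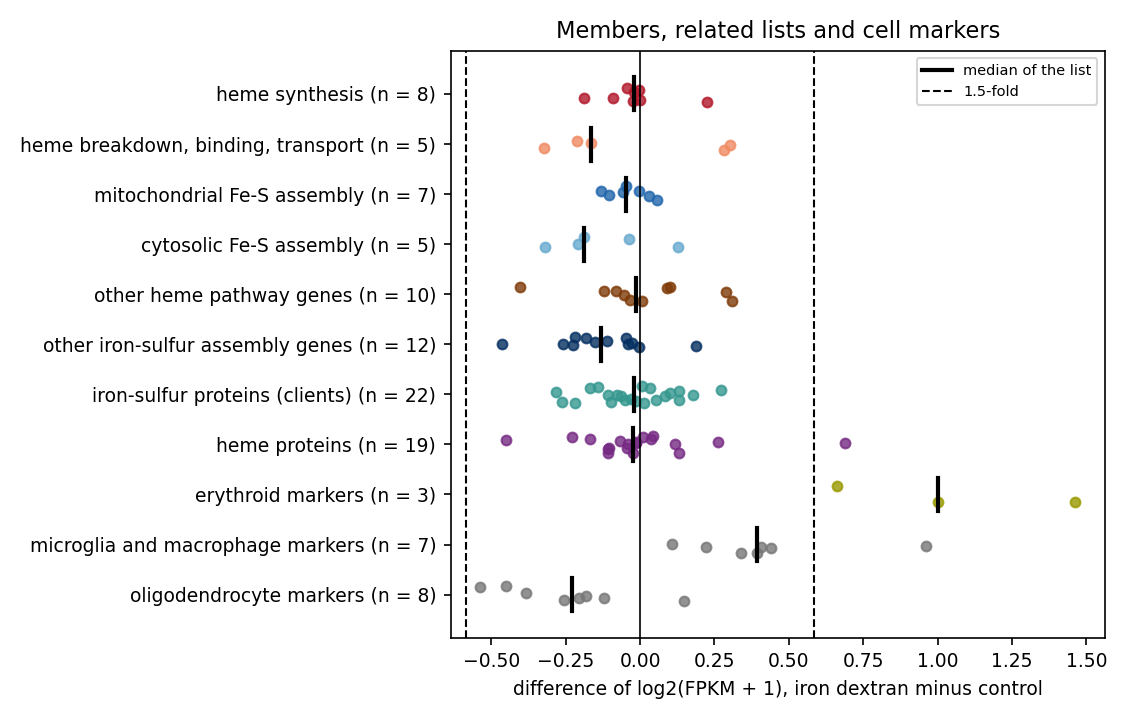
Iron dextran minus control on the log2(FPKM + 1) scale for each measured gene (points) of the 4 member roles, 4 related lists and 3 lists of cell markers, with the median of each list as a black bar and dashed lines at 1.5-fold. The medians of the member roles lie between −0.19 and −0.02, while the erythroid markers have a median of 1.003.

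Across the whole series, FPKM summed to 850165 in iron dextran and 924070 in control, and the number of fragments is unknown. Steps between low values, read as whole fragments, gave the iron dextran sample 1.06 times the depth of control. Of the 690 low genes used for this, only 53.2% lay on such steps, so the depth ratio is a rough estimate. Microglial markers were above 0 in 7 of 7 measured genes (1 past 1.5-fold, 2 with a pseudocount of 0.1 and 3 with 0.01), with a sum of 125 FPKM in iron dextran and 98.0 FPKM in control. P2RY12, the microglial receptor that passed with each pseudocount, had 20.05 FPKM in iron dextran and 9.80 FPKM in control. Oligodendrocyte markers were below 0 in 7 of 8 (0 past 1.5-fold), with a sum of 8741 FPKM in iron dextran and 9982 FPKM in control. Astrocyte markers were above 0 in 4 of 7 measured genes and neuronal markers in 3 of 7 (5 and 6 with the same column total), with 0 past 1.5-fold in either list. The part of these cell types in the differences above was not tested. ALAS2 had 5.78 FPKM in iron dextran and 3.29 FPKM in control. Of 11 markers of hippocampal neurons, 5 were measured, with differences above 0 for 2 and below 0 for 3 (4 and 1 with the same column total, where C1QL3 passed 1.5-fold). C1QL3 had 16.5 FPKM in iron dextran and 11.5 FPKM in control, POU3F1 had 16.2 FPKM in iron dextran and 12.2 FPKM in control, and NECTIN3 had 8.50 FPKM in iron dextran and 11.1 FPKM in control. PROX1, of dentate granule cells, had 0.858 FPKM in iron dextran and 0.761 FPKM in control, and ZBTB20 had 0.0820 FPKM in iron dextran and 0.150 FPKM in control.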

How the data were processed

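The authors deposited 1 table of FPKM values listing Ensembl pig gene IDs in rows and the samples in 2 columns. The submitters' processing notes name cutadapt 1.2.1, TopHat and the builds Sscrofa10.2 and susScr3. The FPKM program, annotation, strand use and handling of reads shared by near-identical genes are not stated in these sources. FPKM is relative to each library, so abundant genes can shift all others. Columns were assigned by the letter shared with the sample titles. Symbols came from a table that matched 11804 of 25322 IDs, and 11 of 37 members were matched to no ID. Unmatched genes may still be present under IDs without a symbol. No coordinates were used.

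Python 3.11.15 with numpy 2.4.6 and pandas 2.3.3 gave log2(FPKM + 1) in iron dextran minus that in control, for genes that reached a mean of 1 FPKM. Genes at least 1.5-fold apart on this scale were counted. The calculation was tested on simulated data. Alternatives changed the pseudocount, the filter, the scaling and the fold. All members are named; of other lists, genes past 1.5-fold or else up to 3 with the largest differences, and ALAS2 in any case. A few genes under this rule are left out. Brain cell marker lists are given mostly by counts and sums. HBB, KLF1, SLC4A1, COX10, PROX1 and ZBTB20 were named after their values were seen. Members and lists were chosen with earlier results of these data known. The depth check used 690 genes above 0 in both samples and under 0.1 FPKM in control.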

Additional observations from a re-analysis of the deposited data

How the results depend on the processing

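The count of members past 1.5-fold was 0 in each direction under pseudocounts of 0.1 and 0.01, no filter, a minimum mean of 5 FPKM, columns centred on the median, the same column total, a trimmed mean of M values and a 2-fold limit. With a 1.2-fold limit, added after seeing the data, it was 2 higher and 2 lower. Against 310 higher and 185 lower genes among all tested, the counts were 558 and 332 with a pseudocount of 0.1, 599 and 357 with 0.01, 113 and 71 from a mean of 5 FPKM, 93 and 53 with a 2-fold limit, and 1572 and 1127 with a 1.2-fold limit. Without a filter they were 434 and 282, and with the same column total 454 and 132, so the share of higher genes depends on that scaling. Of the medians by role, that of heme synthesis turned to 0.0968 and that of mitochondrial assembly to 0.0649 with the same column total, which moved the median of all genes tested to 0.10. With that scaling the medians of breakdown and transport and of cytosolic assembly were −0.0468 and −0.0739. Breakdown and transport also turned to 0.0581 from a mean of 5 FPKM, where FLVCR2 is left out. Of the 25 single differences, 10 changed sign with the same column total, 2 (HSPA9 and ABCB10) after centring and 1 (FECH) with trimmed scaling, and none under the other alternatives. No paired analysis was possible because each group is 1 sample. Absolute depth is unknown, so counting error cannot be given for low genes such as FLVCR2 and HPX.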

Other observations

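Proteins that carry heme form a further group, described here without a test because each group was 1 sample. Of 31 listed genes 22 were matched and 19 measured, with 7 above 0 and 12 below on the log2 difference of iron dextran minus control, and a median of −0.0221. With the same column total, 15 were above 0 and 4 below, and the median was 0.0950. PTGS2 (ENSSSCG00000015579), an inducible cyclooxygenase, was the 1 gene past 1.5-fold, with 2.40 FPKM in iron dextran and 1.11 FPKM in control. PTGS2 was not past the limit of 2-fold on the log2(FPKM + 1) scale. From a mean of 5 FPKM, 0 heme proteins passed 1.5-fold. Among all genes that reached a mean of 1 FPKM, 3.94% passed 1.5-fold in either direction. NGB, neuroglobin, a globin of neurons, had 3.77 FPKM in iron dextran and 5.52 FPKM in control, a ratio of 0.682, and was named after its value was seen.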
